A study of Homo sapiens with 6 samples.

Results

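The integrin genes described here encode 10 subunits of the receptors with which fibroblasts hold on to collagen, fibronectin, vitronectin and laminin. They are *ITGA1*, *ITGA2*, *ITGA3*, *ITGA4*, *ITGA5*, *ITGA11*, *ITGAV*, *ITGB1*, *ITGB3* and *ITGB5*, and their rows were found by their GENCODE symbols. They are 10 of the 58676 gene identifiers in the count table, and each matched 1 identifier. The study asked how fibroblasts respond to signals from lung epithelial cells in which RAS is switched on. RNA-Seq was performed in MRC5 cells, an established line of human lung fibroblasts. The cells were kept for 24 h in conditioned media (CM) from ATII ER:KRASV12 cells, an alveolar epithelial type II line that carries a RAS protein activated by 4-hydroxytamoxifen (4-OHT). The CM of 3 libraries was taken from control epithelial cells (control ATII CM). That of the remaining 3 was taken from epithelial cells given 4-OHT (4-OHT ATII CM). Both groups share the cell line, the CM donor line and the serum-containing medium that the paper gives for fibroblast culture in general. No library of fibroblasts given 4-OHT alone was among the 6. Because all libraries come from 1 line and no source says that they came from separate cultures, p values measure the spread between these libraries only.

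Integrins are pairs of an α and a β subunit that span the cell membrane. Outside the cell the pair binds matrix or other cells, and inside it recruits talin, kindlin and further adaptors that couple it to actin, so that the α subunit largely sets the ligand and the β subunit the link to the cytoskeleton. β1 is shared by most α subunits of fibroblasts. αv can also pair with β3, β5, β6 or β8, and αv integrins are known in fibrosis for releasing TGF-β from its latent complex.

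Gene positions are on GRCh38, as in the count table. Counts per library summed to between 17691849 and 26389449, and the lowest total was that of control ATII CM replicate 2. Levels are CPM, which are counts divided by library sizes that edgeR normalized by TMM, and differences are log2 fold changes of 4-OHT ATII CM over control ATII CM. Genes with at least 10 counts over the 6 libraries were tested with the quasi-likelihood test of edgeR, and a gene with a Benjamini-Hochberg adjusted p below 0.05 over all 19072 genes tested is called a DEG. Of those genes 5.72% were DEGs, 2.95% upregulated and 2.76% downregulated in 4-OHT ATII CM. Fibroblast markers were high, with all 8 listed markers tested and a summed level of 40000 to 43000 CPM in controls and 41800 to 43000 CPM in treated libraries. Of the markers of other cells, 2 of each list were at 0 counts in all libraries (*ESRP1* and *NKX2-1* of epithelium, *PECAM1* and *CDH5* of endothelium, *CD3E* and *GP9* of blood). Other defining markers had few counts over the 6 libraries together: *EPCAM* had 48, *CDH1* had 4, *VWF* had 50, *PTPRC* had 2 and *CD68* had 4. The summed level of 11 epithelial markers, 6 of them tested and none called, was 93.1 to 99.8 CPM in the controls and 89.9 to 96.7 CPM in treated libraries. Most of it came from the keratin genes *KRT8* (means of 32.5 and 33.7 CPM) and *KRT18* (53.5 and 51.8 CPM). The sum of 6 endothelial markers went from 122 to 138 CPM in the controls to 162 to 171 CPM, nearly all of it *TEK*, the only 1 called. That of 6 blood markers was 0.61 to 1.07 and 1.15 to 1.93 CPM, mostly *CD14*, which was not called. Among the fibroblast markers *DCN*, *LUM*, *COL3A1* and *PDGFRA* were upregulated. The part of these markers in the results on integrins was not tested.

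Promoter sequences are shown for *ITGAV*, the shared partner of several β subunits, and for the integrin genes with an entry that were DEGs in the comparison described further on (*ITGB5*, *ITGB8*, *ITGA6* and *ITGA8*). Each is the stretch of 250 bases before a start of the gene in RefSeq (GRCh38.p14), written 5′ to 3′ on the strand of the gene, with matches to the GC box (GGGCGG on either strand) in capitals.
ITGAV (chr2:186589806-186590055, plus strand): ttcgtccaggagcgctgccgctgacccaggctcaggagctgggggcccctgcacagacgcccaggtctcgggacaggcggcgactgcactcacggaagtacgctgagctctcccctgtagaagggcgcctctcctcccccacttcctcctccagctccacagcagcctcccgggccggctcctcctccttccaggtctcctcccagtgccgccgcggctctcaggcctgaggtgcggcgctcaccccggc
ITGB5 (chr3:124887366-124887615, minus strand): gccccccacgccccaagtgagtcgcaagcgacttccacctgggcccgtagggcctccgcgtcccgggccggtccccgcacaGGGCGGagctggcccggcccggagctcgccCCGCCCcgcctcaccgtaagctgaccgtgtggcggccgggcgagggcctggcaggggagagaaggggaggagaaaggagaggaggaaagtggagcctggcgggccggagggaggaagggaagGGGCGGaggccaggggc
ITGB8 (chr7:20330650-20330899, plus strand): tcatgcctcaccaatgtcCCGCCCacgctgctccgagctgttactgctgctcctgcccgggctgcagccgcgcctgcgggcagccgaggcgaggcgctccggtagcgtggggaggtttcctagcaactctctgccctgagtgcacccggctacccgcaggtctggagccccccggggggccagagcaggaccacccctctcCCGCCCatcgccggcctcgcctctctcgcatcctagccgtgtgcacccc
ITGA6 (chr2:172427336-172427585, plus strand): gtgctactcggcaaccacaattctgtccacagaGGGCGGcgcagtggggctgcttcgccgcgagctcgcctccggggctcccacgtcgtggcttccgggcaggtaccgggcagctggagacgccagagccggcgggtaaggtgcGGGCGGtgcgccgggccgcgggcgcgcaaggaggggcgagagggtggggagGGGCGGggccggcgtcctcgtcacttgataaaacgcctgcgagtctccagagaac
ITGA8 (chr10:15719923-15720172, minus strand): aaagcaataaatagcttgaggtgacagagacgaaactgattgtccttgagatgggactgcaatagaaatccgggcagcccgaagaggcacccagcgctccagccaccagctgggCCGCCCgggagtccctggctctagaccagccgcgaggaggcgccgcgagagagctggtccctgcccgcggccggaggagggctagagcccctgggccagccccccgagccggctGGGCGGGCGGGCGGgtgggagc
Where RefSeq gives several starts (3 for *ITGB5*, 2 each for *ITGAV*, *ITGB1* and *ITGA6*), the one nearest to the start of the GENCODE canonical transcript was used and the others were not analysed. That start can lie inside the span given for the gene, as it does for *ITGB5* and *ITGB1*. The promoter table used here had entries for 8 of the 10 members. The promoters of *ITGA3* and *ITGB3* were not analysed here. A GC box, the motif bound by Sp1, matched the window of 4 of these 8 members: *ITGA2* had 4 matches, *ITGB1* and *ITGB5* had 3 each and *ITGA5* had 1. *ITGA1*, *ITGA4*, *ITGA11* and *ITGAV* had none. Among the promoters printed, *ITGA8* had 4 matches, some of them overlapping, *ITGA6* had 3 and *ITGB8* had 2. Of 35116 promoter windows of the same length, 42.6% held a GC box. None of the 8 members had a TATA box (TATAAA, in 10.7% of all windows), an AP-1 site (TGANTCA, in 6.57%) or a CArG box (in 1.16%) on either strand. The windows of the members were rich in G and C, from 62.0% in *ITGA1* to 78.4% in *ITGB1*, where the median of all windows was 58.0%. These are matches of letters, and no binding was measured.

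*ITGB3* rose and *ITGA3* and *ITGB5* fell in fibroblasts kept in 4-OHT ATII CM. The other 7 members were not DEGs. All 10 members passed the count filter, with 452 to 73332 counts per library. Calls were made for 3 of the 10 members (1 upregulated and 2 downregulated), beside calls for 5.72% of all genes tested and 12.0% of the 5994 genes that were at least as abundant as the lowest member. In 7 members the groups were fully separated, 3 of them higher (*ITGB3*, *ITGAV* and *ITGB1*) and 4 lower (*ITGA3*, *ITGB5*, *ITGA11* and *ITGA5*). Full separation was seen in 22.1% of all genes tested and in 33.5% of the 5994 abundant ones, which are the closer background for the members. Their median log2 fold change was -0.06, beside -0.002 over all genes. In bulk RNA, fewer cells that express a gene and less RNA per cell cannot be told apart, and protein was not measured in these libraries.

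**Figure D1:**
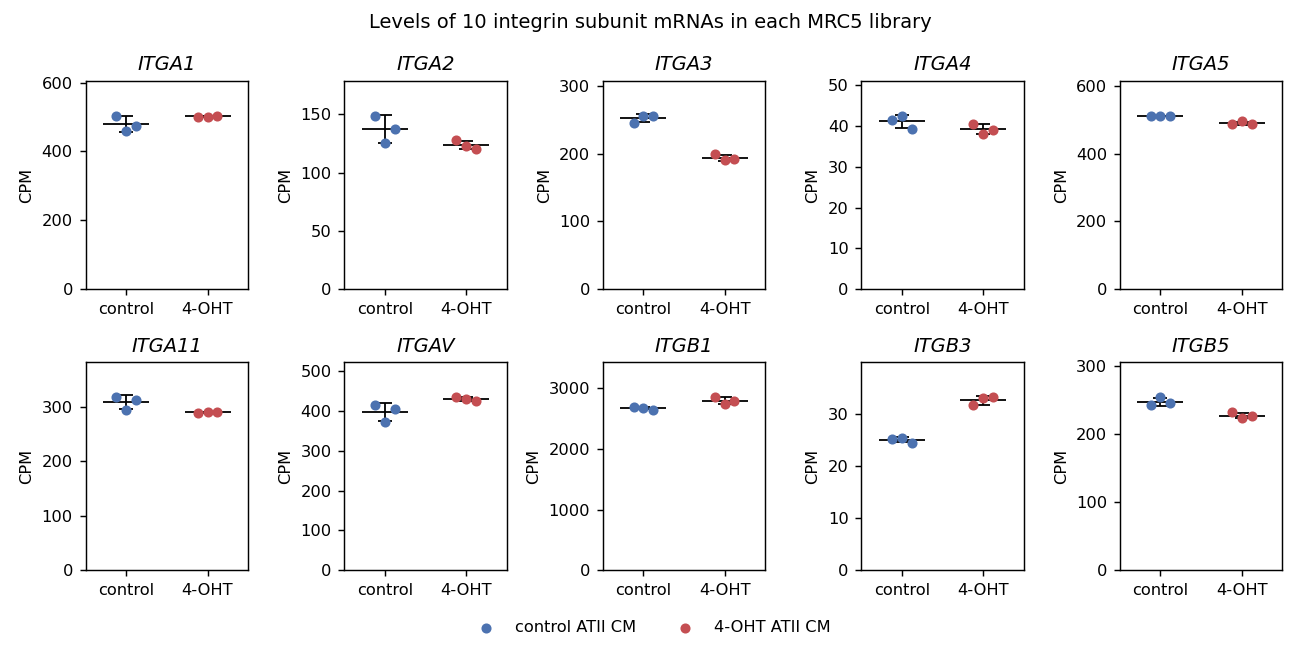
CPM of each member in each library (points), with the mean and SD of the 3 libraries of a group (black bars) and all axes starting at 0. ITGA3 and ITGB3 show the clearest gap between groups, ITGA3 lower and ITGB3 higher in 4-OHT ATII CM.

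Among the β subunits, *ITGB3* was upregulated, *ITGB5* was downregulated by a smaller amount and *ITGB1* was not called. *ITGB3* (ENSG00000259207, chromosome 17, 47253846 to 47311816, plus strand) encodes β3, which pairs with αv in fibroblasts to bind vitronectin, fibronectin and other proteins with an RGD motif. Its level was 25.2, 25.3 and 24.4 CPM in replicates 1 to 3 of the controls and 31.6, 33.0 and 33.2 CPM in replicates 1 to 3 of the treated libraries. Every treated library was above every control library. The group means were 25.0 ± 0.483 and 32.6 ± 0.873 CPM (SD, n = 3 each; log2 fold change 0.38, standard error 0.0523, adjusted p = 0.000336 from edgeR). The call was kept in all 17 alternative analyses, with adjusted p between 1.27e-08 and 0.00472. Of its merged exons 51.57% (2266 bases) are also exons of ENSG00000259753 on the same strand, which has 0 counts. Reads in these shared bases were thus not counted for that gene. Whether they were counted for *ITGB3* or for neither gene is not given in the sources used here. If for neither, the level of *ITGB3* per kilobase is understated, and its level relative to other genes is less certain for that reason.

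*ITGB5* (ENSG00000082781, chromosome 3, 124761948 to 124901418, minus strand) encodes β5, another partner of αv and a vitronectin receptor. It measured 243, 254 and 245 CPM in the control libraries and 232, 223 and 226 CPM in the treated libraries. The groups did not overlap, but they lay close, with 231.7 CPM as the highest treated value and 243.3 CPM as the lowest control value. Means were 248 ± 5.79 and 227 ± 4.21 CPM (SD, n = 3 each; log2 fold change -0.12, standard error 0.0337, adjusted p = 0.0399 from edgeR). *ITGB5* was a DEG in 11 of 17 alternatives. Of the 6 that lost the call, 5 left out 1 library in edgeR: control ATII CM replicate 1 (adjusted p = 0.0589) or 3 (0.0904), or 4-OHT ATII CM replicate 1 (0.0815), 2 (0.166) or 3 (0.157).

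*ITGB1* (ENSG00000150093, chromosome 10, 32900319 to 33005792, minus strand) encodes β1, the common partner of the α subunits described here. Levels were 2693, 2679 and 2648 CPM with control and 2853, 2739 and 2790 CPM with 4-OHT ATII CM. All treated values were higher than all control values, and the difference was small (log2 fold change 0.06, standard error 0.0243, adjusted p = 0.164 from edgeR). It was called in none of 18 alternatives. A processed pseudogene, *ITGB1P1* on chromosome 19, is identical to an *ITGB1* transcript over all of its 609 bases, so reads could be assigned to either gene. *ITGB1P1* held 5.43 ± 0.106% as many counts as *ITGB1* in control ATII CM and 5.12 ± 0.251% in 4-OHT ATII CM (SD, n = 3 each). With the counts of both genes added, the log2 fold change was 0.06 (adjusted p = 0.197 from edgeR).

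*ITGA3* (ENSG00000005884, chromosome 17, 50055968 to 50090481, plus strand) was the member with the lowest fold change and the smallest p. It encodes α3, which pairs with β1 and binds mainly laminins. Control libraries held 246, 256 and 256 CPM and treated libraries 199, 190.0 and 192 CPM. The highest treated library was well below the lowest control library. Means were 252 ± 5.98 and 194 ± 4.58 CPM (SD, n = 3 each; log2 fold change -0.38, standard error 0.0346, adjusted p = 1.13e-05 from edgeR), a decrease that was called in all 17 alternatives, with adjusted p from 4.24e-20 to 0.000446.

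None of the 3 collagen-binding α subunits among the members was a DEG. *ITGA11* (ENSG00000137809, chromosome 15, 68296533 to 68432162, minus strand) encodes α11, a receptor for fibrillar collagen typical of fibroblasts. It was at 318, 294 and 313 CPM with control and at 289, 290.0 and 291 CPM with 4-OHT ATII CM. The groups did not overlap, and the treated libraries differed among themselves less than the controls, with a coefficient of variation of 0.239% beside 4.08% (log2 fold change -0.09, standard error 0.0349, adjusted p = 0.178 from edgeR). *ITGA2* (ENSG00000164171, chromosome 5, 52989326 to 53094779, plus strand) encodes α2, which also favours fibrillar collagen. Its values of 149, 125 and 138 CPM in the controls overlapped with 128, 123 and 120.5 CPM in the treated libraries (log2 fold change -0.15, standard error 0.0514, adjusted p = 0.107 from edgeR). *ITGA1* (ENSG00000213949, chromosome 5, 52787896 to 52959210, plus strand) encodes α1, which favours the collagen of basement membranes. It gave 503, 459 and 475 CPM in control and 501, 500.4 and 504 CPM in treated libraries, and control replicate 1 lay within the treated range (log2 fold change 0.07, standard error 0.0347, adjusted p = 0.355 from edgeR). *ITGA1* and *ITGA2* are neighbours on chromosome 5. Exons of *ITGA1* share 475 bases on the same strand with *PELO*, which had 13804 counts in all beside 66385 of *ITGA1*.

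Calls of the collagen receptors depended on control replicate 2, whose total count was the lowest, and on corrections for gene length. Without that library, *ITGA11* and *ITGA2* became DEGs in edgeR (adjusted p = 0.00898 and 0.00158) at log2 fold changes of -0.12 and -0.21. Without control replicate 1, the highest for *ITGA2*, the log2 fold change of *ITGA2* was -0.09 (adjusted p = 0.371 from edgeR). Leaving out control replicate 2 also took *ITGA1* from 0.07 to 0.04 (adjusted p = 0.562 from edgeR), and leaving out control replicate 1 took it to 0.10 (0.117). Control replicate 2 was the lowest of the controls for 5 of the 10 members, at 87.4% of the mean of the other controls for *ITGA2*, 91.0% for *ITGAV*, 93.2% for *ITGA11* and 93.8% for *ITGA1*, and it lay between 99.6% and 105.3% of that mean for the other 6. With a trend of each library on gene length removed, *ITGA1* rose (log2 fold change 0.12, adjusted p = 0.0272 from edgeR) and *ITGA2* fell (log2 fold change -0.16, adjusted p = 0.0497 from edgeR), the latter at nearly the same fold change as without that correction. *ITGA2* was also called with no filter (adjusted p = 0.0101 from edgeR).

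Among the members, the α subunits of fibronectin and vitronectin receptors (*ITGA5* and *ITGAV*) were not called either. *ITGA5* (ENSG00000161638, chromosome 12, 54395261 to 54419460, minus strand) encodes α5, which with β1 forms the main fibronectin receptor. Its levels of 512, 509.9 and 512 CPM in the controls exceeded all of 488, 495 and 487 CPM in the treated libraries. The gap was narrow (log2 fold change -0.06, standard error 0.0285, adjusted p = 0.286 from edgeR) and no alternative called it. *ITGAV* (ENSG00000138448, chromosome 2, 186590065 to 186680901, plus strand) encodes αv. Controls were at 414, 372 and 403 CPM and treated libraries at 434, 429 and 425 CPM, all of them above the controls (log2 fold change 0.11, standard error 0.0376, adjusted p = 0.0988 from edgeR). *ITGAV* was a DEG in 4 of 17 alternatives: without control replicate 1 (adjusted p = 0.0489 from edgeR), with no filter (0.0124), and with a trend on length (0.045) or on GC content and length (0.0421) removed. Without control replicate 2, the lowest control, its log2 fold change was 0.07 (adjusted p = 0.138 from edgeR).

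*ITGA4* (ENSG00000115232, chromosome 2, 181457202 to 181536187, plus strand) encodes α4, which binds the adhesion molecule encoded by *VCAM1* and a fibronectin splice form. It was among the members with the fewest counts, at 41.5, 42.5 and 39.4 CPM in control and 40.5, 38.0 and 39.1 CPM in treated libraries. The groups overlapped (log2 fold change -0.07, standard error 0.0480, adjusted p = 0.529 from edgeR), and no alternative called it. Its log2 fold change was -0.11 without control replicate 3 and -0.04 without control replicate 2.

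Of the 16 integrin genes outside the 10, 11 could be tested, and 3 of them were DEGs (27.3%, beside 5.72% of all genes), with 2 upregulated and 1 downregulated. *ITGA6* encodes α6, a laminin receptor subunit like α3. It fell from 29.5, 29.2 and 29.2 CPM in the control libraries to 21.2, 18.9 and 20.2 CPM in the treated libraries, without overlap (log2 fold change -0.55, standard error 0.0597, adjusted p = 5.16e-05 from edgeR). *ITGA8* encodes α8, which pairs with β1 and binds RGD ligands. It rose from 144, 130.1 and 146 CPM to 167, 170.4 and 173 CPM, again without overlap (log2 fold change 0.28, standard error 0.0427, adjusted p = 0.000786 from edgeR). Both calls were kept in all 17 alternatives. *ITGB8* encodes β8, a partner of αv only. It was at 18.2, 16.2 and 20.1 CPM in control and 21.8, 22.0 and 22.7 CPM in treated libraries (log2 fold change 0.28, standard error 0.0748, adjusted p = 0.0379 from edgeR). This call was kept in 12 of 17 alternatives and, among the 6 that leave out a library, only without control replicate 3; without the others its adjusted p from edgeR was 0.0721 to 0.138. The rest (*ITGA7*, *ITGA9*, *ITGA10*, *ITGA2B*, *ITGAE*, *ITGB2*, *ITGB4* and *ITGB7*) were not called, and of these *ITGAE* and *ITGA7* alone exceeded 3 CPM. *ITGB6* and *ITGAX* had 0 counts.

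**Figure D2:**
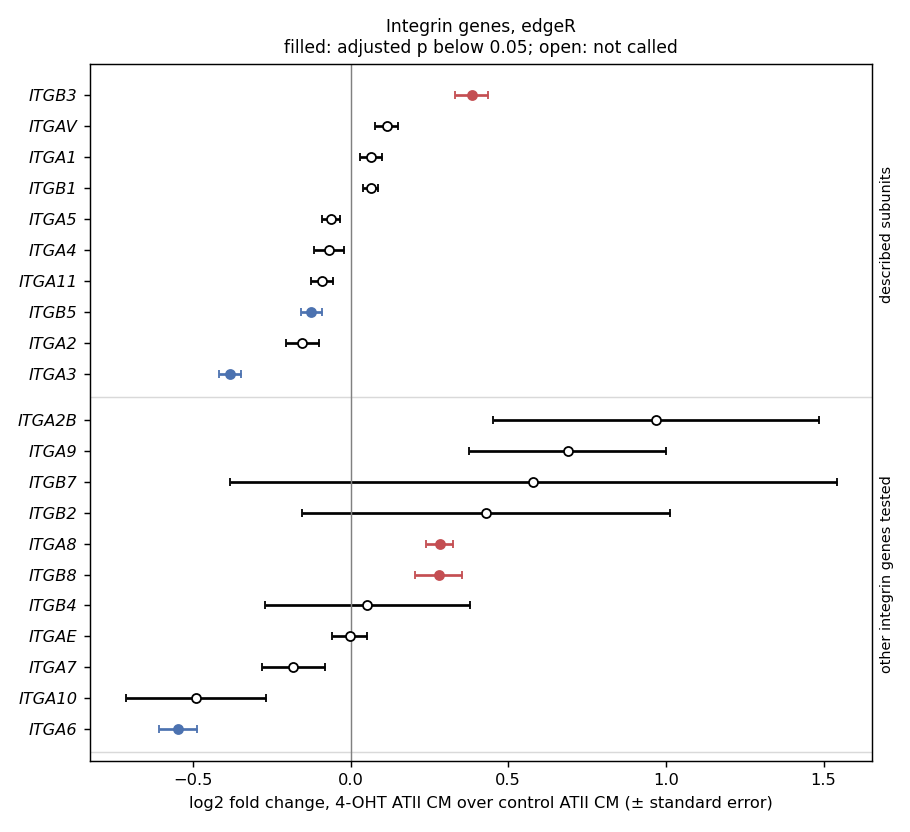
Log2 fold change with its standard error from edgeR (x axis) of the 21 integrin genes tested, members above and other integrin genes below. Filled points are DEGs, red up and blue down; ITGA6 and ITGA3 lie lowest among the DEGs and ITGB3 highest.

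Levels of different genes were compared as CPM per kilobase of merged exons, as means over the 6 libraries. *ITGB1* was highest at 455 CPM per kilobase, 6.88 times *ITGA5* at 66.1. *ITGAV* followed at 50.3, *ITGB5* at 36.8, *ITGA11* at 27.5, *ITGA1* at 26.4, *ITGA3* at 22.8, *ITGA2* at 16.5, *ITGB3* at 6.56 and *ITGA4* at 5.08 CPM per kilobase. The ranges over the 6 libraries of neighbours in this order did not overlap, except those of *ITGA11* and *ITGA1* and those of *ITGA1* and *ITGA3*. With the length of the canonical transcript instead, *ITGA1* and *ITGA3* moved above *ITGA11*, so the order of these genes depends on the length used. *ITGA4* also moved above *ITGB3*. The canonical transcript of *ITGB3* (5941 bases) is, however, longer than its merged exons in the count table (4394 bases). Reads of *ITGB3* were thus counted over a shorter gene model, and its change of order cannot be interpreted. Its level is also uncertain for the shared exons described above. Per length, *ITGB5* exceeded *ITGB3* in both groups. *ITGB5* was at 38.4 ± 0.898 CPM per kilobase in the controls and 35.2 ± 0.653 in the treated libraries, and *ITGB3* at 5.69 ± 0.11 and 7.42 ± 0.199 (SD, n = 3 each).

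**Figure D3:**
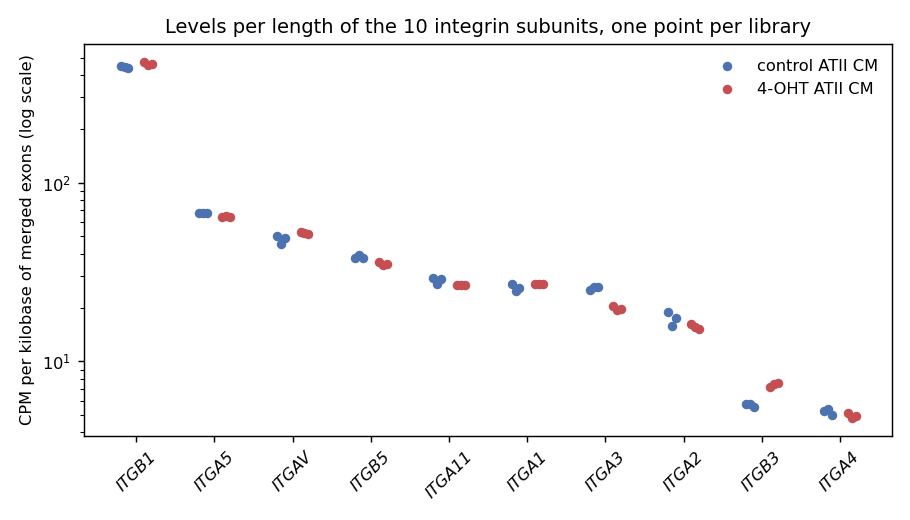
CPM per kilobase of merged exons (log scale) of the 10 members, 1 point per library, in the order of their means. ITGB1 stands apart at 440 to 475, and the other members spread from 4.81 to 67.6.

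Ratios between subunits within a library do not depend on its depth or normalization. The ratio of *ITGB3* to *ITGB5* counts per kilobase was 0.152, 0.146 and 0.146 in the controls and 0.200, 0.217 and 0.215 in the treated libraries, in the order of their replicate numbers. It was higher in every treated library, with means of 0.148 ± 0.00356 and 0.211 ± 0.00919 (SD, n = 3 each), a 1.42-fold difference. An exact two-sided permutation test gave p = 0.1, the smallest value that 3 libraries against 3 allow. *ITGB3* relative to its α partner *ITGAV* was 0.118 ± 0.00779 in control and 0.142 ± 0.0052 in treated libraries (exact permutation p = 0.1), with no overlap. The sum of the 7 α members relative to *ITGB1* was 0.491 ± 0.0136 in control and 0.454 ± 0.00805 in treated libraries (exact permutation p = 0.1), lower in every treated library. These 3 ratios formed 1 family, and all 3 adjusted p values were 0.1 as well. Within that α sum, *ITGA3* held 11.8% in control and 9.36% in treated libraries and *ITGAV* 22.1% and 24.8%, while *ITGA5* held 30.9% and 30.6% with overlapping groups. Of the counts per kilobase of *ITGB3*, *ITGB5* and *ITGB8* together, *ITGB3* held 12.6% and 16.8%. The length used for *ITGB3* includes the exons it shares with ENSG00000259753. The sizes of its ratios and of its share are therefore uncertain, and they are not amounts of paired subunits.

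**Figure D4:**
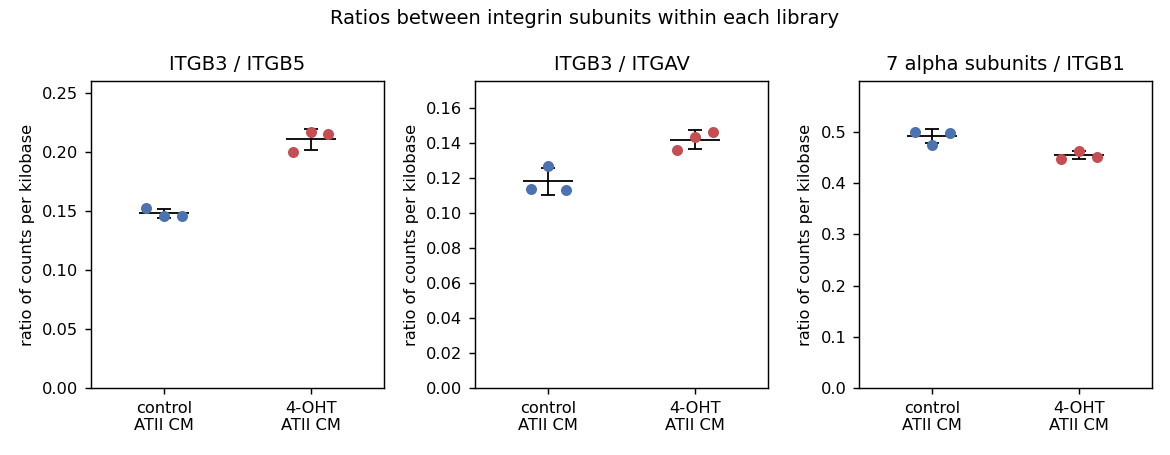
Ratio of counts per kilobase within each library (points) for ITGB3 over ITGB5, ITGB3 over ITGAV and the 7 α members over ITGB1, with the mean and SD of each group (black bars) and axes starting at 0. The treated libraries lie above the control libraries in the first and second panels and below them in the last.

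Among genes for ligands of these integrins, calls were made in both directions with all 6 libraries. Of 26 listed ligand genes 24 were tested, and 10 were DEGs (41.7%, beside 5.72% of all genes and 12.0% of the 5994 abundant ones), 7 upregulated and 3 downregulated, with a median log2 fold change of 0.01. This balance depended on the libraries: calls were 7 up and 8 down without control replicate 2, 6 up and 0 down without control replicate 3, 6 up and 1 down without control replicate 1, 7 up and 1 down without 4-OHT replicate 1, 4 up and 2 down without 4-OHT replicate 2, and 4 up and 1 down without 4-OHT replicate 3. *FN1*, which encodes fibronectin, the ligand of α5β1 and the αv integrins, was at 7503, 5651 and 7274 CPM in control and 5538, 5416 and 5440 CPM in treated libraries (log2 fold change -0.32, standard error 0.0684, adjusted p = 0.0107 from edgeR). Control replicate 2 was close to the treated libraries, at 76.5% of the other controls. *FN1* missed the threshold without control replicate 3 (adjusted p = 0.0542 from edgeR), without 4-OHT replicate 2 (0.0641) and with DESeq2 (0.0867). *VTN*, which encodes vitronectin, the ligand of αvβ3 and αvβ5, was present at few counts, 5.20, 4.14 and 6.44 CPM in control and 6.99, 7.50 and 8.75 CPM in treated libraries (log2 fold change 0.55, standard error 0.143, adjusted p = 0.0339 from edgeR). The *VTN* call was lost without control replicate 1 (adjusted p = 0.104 from edgeR) or 2 (0.0696) and without 4-OHT replicate 2 (0.0865) or 3 (0.163).

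Collagen ligands did not move as one. *COL3A1*, of type III collagen, rose from 4847 ± 143 to 5493 ± 113 CPM (SD, n = 3 each; log2 fold change 0.18, standard error 0.0255, adjusted p = 0.000463 from edgeR). *COL6A3* of type VI collagen was lower (log2 fold change -0.28, standard error 0.0773, adjusted p = 0.0460 from edgeR), with control replicate 2 at 73.8% of the other controls. That call was kept without control replicate 2 (adjusted p = 1.52e-09 from edgeR) and lost when any other library was left out (0.109 to 0.186) and with DESeq2 (0.249). *COL1A1* and *COL1A2*, the chains of type I collagen, were not called (adjusted p = 0.0861 and 0.888 from edgeR), but both were without control replicate 2 (1.8e-05 and 0.0411), at log2 fold changes of -0.14 and -0.06. *COL1A1* was called in 7 of 17 alternatives. Among ligands of the αv integrins, *TGFBI* rose (log2 fold change 0.17, standard error 0.0241, adjusted p = 0.000441 from edgeR), as did *EDIL3* (log2 fold change 0.23, standard error 0.0339, adjusted p = 0.000733 from edgeR), *FBLN5* (log2 fold change 0.15, standard error 0.0308, adjusted p = 0.00891 from edgeR) and *THBS1* (log2 fold change 0.14, standard error 0.0330, adjusted p = 0.0189 from edgeR). *VCAM1*, the ligand of α4β1, rose from 77.4 ± 3.87 to 91.9 ± 3.60 CPM (SD, n = 3 each; log2 fold change 0.25, standard error 0.0446, adjusted p = 0.00325 from edgeR), and *CCN1*, a matricellular αv ligand, fell (log2 fold change -0.18, standard error 0.0474, adjusted p = 0.0400 from edgeR). *COL3A1*, *TGFBI*, *EDIL3* and *VCAM1* kept their calls in all 17 alternatives. In edgeR, 4-OHT replicate 3 left out ended the calls of *FBLN5* (adjusted p = 0.0763), *THBS1* (0.101) and *CCN1* (0.0792). Calls also ended without 4-OHT replicate 2 for *FBLN5* and *THBS1* (0.0554 and 0.0911), without control replicate 3 for *FBLN5* and *CCN1* (0.056 and 0.0941), and without control replicate 1 or 4-OHT replicate 1 for *CCN1* (0.0704 and 0.146). Without 4-OHT replicate 1 the log2 fold change of *CCN1* was -0.10.

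Adaptors that link integrins to actin were mostly not called. All 36 listed adaptor genes were tested, and 5 were DEGs (13.9%, beside 5.72% of all genes and 12.0% of the 5994 abundant ones), 1 upregulated and 4 downregulated, with a median log2 fold change of -0.01. *FERMT2*, which encodes kindlin-2, an activator that binds β tails, rose (log2 fold change 0.13, standard error 0.0299, adjusted p = 0.0203 from edgeR). *TLN1* (talin-1, which binds β tails), *FLNA* (filamin A, which crosslinks actin and binds β tails), *PXN* (paxillin) and *ZYX* (zyxin) fell by similar amounts, with log2 fold changes of -0.15, -0.13, -0.14 and -0.14 and adjusted p from edgeR of 0.0377, 0.0117, 0.0194 and 0.0254. *ILK*, *PTK2* (FAK) and *VCL* (vinculin) were not called (log2 fold changes 0.21, 0.04 and -0.0046). That of *ILK* was 0.09 without control replicate 2, 0.12 without 4-OHT replicate 3 and 0.34 without control replicate 1. That of *PTK2* was 0.01 without control replicate 3, 0.02 without 4-OHT replicate 1 and 0.06 without either control replicate 2 or 4-OHT replicate 3. That of *VCL* changed sign with the library left out. In the annotation, *ILK* exons overlap with *TAF10* on the other strand over 2374 bases, so the counts of *ILK* are uncertain. Smaller overlaps with genes on the other strand hold for *PXN* (918 bases) and *VCL* (1109 bases), and among the ligands for *THBS1* (448 bases with *FSIP1*). None of the 5 calls was kept in edgeR without 4-OHT replicate 2 or without 4-OHT replicate 3, and *FLNA* alone was kept without 4-OHT replicate 1. Without control replicate 1 the calls were *FLNA*, *PXN* and *ZYX*, without control replicate 3 *FLNA* and *ZYX*, and without control replicate 2 their number was 7.

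Of 22 surface partners and trafficking genes 21 were tested, and 2 were DEGs (9.52%, beside 5.72% of all genes and 12.0% of the 5994 abundant ones), both downregulated. *CAV1*, which encodes caveolin-1, fell (log2 fold change -0.13, standard error 0.0279, adjusted p = 0.0115 from edgeR), and *PLAUR*, which encodes the urokinase receptor that binds integrins side by side on the membrane, fell (log2 fold change -0.18, standard error 0.0481, adjusted p = 0.0355 from edgeR). *CAV1* missed the threshold in edgeR without any 1 of the treated libraries (adjusted p 0.0521 to 0.0703), and *PLAUR* without any library but control replicate 1 (0.056 to 0.169). *CD47*, a companion of αvβ3, was not called (log2 fold change 0.06, standard error 0.0357, adjusted p = 0.482 from edgeR), nor was any of the tetraspanins *CD151*, *CD9*, *CD81*, *CD63* and *CD82*. Without 4-OHT replicate 1 the log2 fold change of *CD47* was 0.03.

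**Figure D5:**
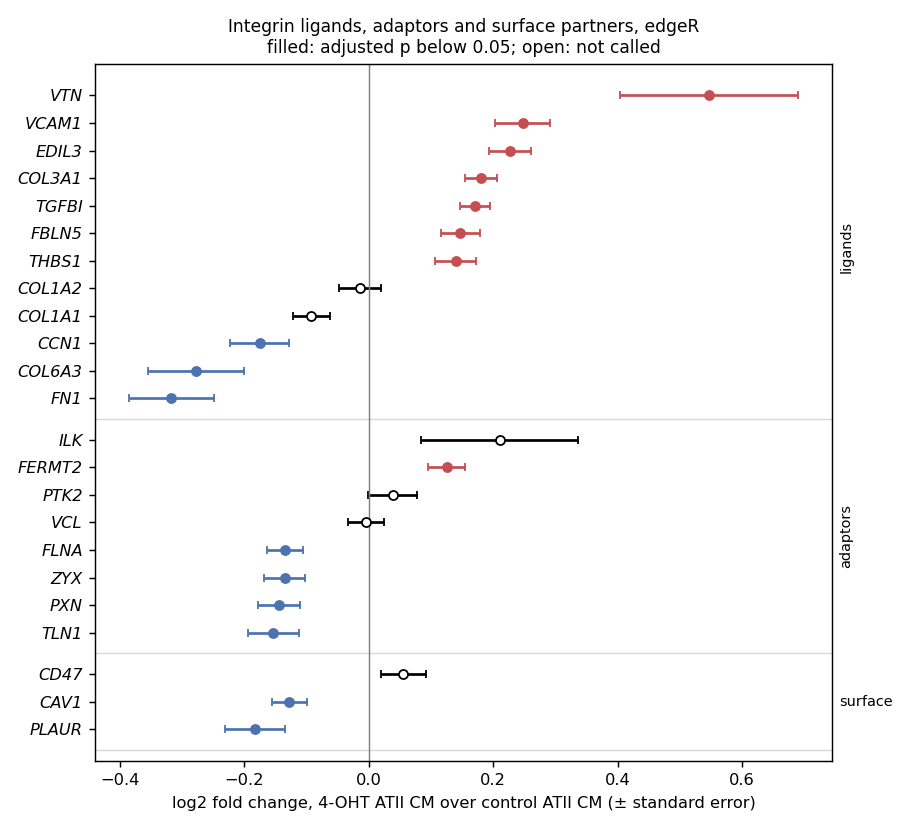
Log2 fold change with its standard error from edgeR (x axis) of named ligand, adaptor and surface partner genes. Filled points are DEGs, red up and blue down; ligands lie on both sides of 0, and 4 of the 5 adaptor DEGs lie below it.

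For the 3 members that were DEGs, the genes with the most similar log2 CPM over the 6 libraries were sought among 13051 genes, by Pearson's r as a description of these 6 points, which fall in 2 groups. *ITGA3* was followed by *CLDN1* (r = 0.999), *STIL* (r = 0.998) and *TACC3* (r = 0.997), all with lower means in the treated libraries (*STIL* itself missed the threshold, adjusted p = 0.0507 from edgeR). *ITGB3* was followed by *GPCPD1* and *TNFRSF21* (r = 0.998 each) and *FBLN5* (r = 0.997), all higher. *ITGB5* was followed by *NCAPH* (r = 0.997), *OXTR* (r = 0.996) and *WNT5B* (r = 0.996), all lower.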

How the data were processed

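RNA-Seq was performed by the authors in 6 libraries, which were assigned to control ATII CM (n = 3) or 4-OHT ATII CM (n = 3) by the sample labels. Per the labels, reads were trimmed with Trim Galore, aligned to GRCh38 with HISAT2 2.1.0 and counted with featureCounts 1.6.5. The authors deposited raw counts per gene without normalization, next to the exon coordinates and the merged exon length (unit: bases) of each gene. The annotation release, the strand setting and the treatment of reads with several locations are not given in the sources used here.

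The table has 58721 lines for 58676 identifiers, and counts of the 45 identifiers listed on X and Y were added. Names came from GENCODE release 44. The 19072 genes with at least 10 counts over all libraries were normalized by TMM and tested with the edgeR 4.0.16 quasi-likelihood test in R 4.3.3, with group as the only term and Benjamini-Hochberg adjustment over all of them. DESeq2 1.42.0 and limma-voom (limma 3.58.1) were alternatives, beside other scalings and filters, a replicate block, trends on length and GC content, and each library left out. The trend on GC content, the sum with *ITGB1P1* and the canonical length were added after the data were seen. Standard errors follow from the F statistic. Copies were sought with minimap2 2.31. Promoters came from RefSeq (GRCh38.p14).

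Named genes are the 10 members, all other tested integrin genes, the DEGs of 3 lists (ligands, adaptors, surface partners) with a few preset genes, and the 3 genes most correlated with each member called. The members and lists were chosen with earlier results of these data known. Library totals had a median of 22273931, and the square root of the common dispersion was 4.364%. In simulated counts of the same comparison over 18691 genes, edgeR called 32 of 50 genes changed by 0.3 on the log2 scale, 46 of 50 changed by 0.5 and all 50 changed by 0.8, with 8 unchanged genes called. The changed genes were drawn from the more abundant ones, and no simulated library deviated from its group as control replicate 2 did. Changes as small as those of *ITGB5* and of the members not called were not simulated.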

Additional observations from a re-analysis of the deposited data

How the results depend on the processing

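Of the 10 members, 3 were called; the number was 5 with no filter (all genes with at least 1 count), 6 with the length trend removed, 6 with the GC and length trend removed, and 5 when either trend was removed together with the replicate block. Leaving out 1 library gave 2 to 5, with 5 without control replicate 2. *ITGA3* and *ITGB3* were called in all 17 alternatives, and no member changed direction in any. Same-numbered libraries of the groups did not deviate together (correlations of -0.014, -0.104 and -0.093 over 9691 genes), so the numbers were not taken as pairs. The replicate block alone gave 2 calls among members, without *ITGB5* (adjusted p = 0.0706 from edgeR), and 985 of all genes in place of 1090. Leaving out 1 library gave 533 to 1530 calls over all genes, 5 to 15 ligands, 0 to 7 adaptors and 0 to 2 surface partners. With no filter 1601 genes were called. Directions changed for genes near 0 or with few counts. The log2 fold change of *ITGAE* was 0.0065 with no filter and -0.0403 to 0.0206 with 1 library left out, *ITGB4* was -0.1483 to 0.4107 and *ITGB7* -0.1952 to 1.097 with 1 library left out. *COL1A2* was 0.0035 with the length trend removed (0.0034 with the block) and 0.0051 with the GC and length trend removed (0.0051 with the block), and -0.0646 to 0.0122 with 1 library left out. *VCL* was 0.0042 with no filter, 0.0055 with the length trend removed (0.0055 with the block), 0.005 with the GC and length trend removed (0.005 with the block), and -0.0264 to 0.0084 with 1 library left out. The cause of these changes was not tested. The ratios kept their directions, and an exact permutation within replicate numbers (the replicate block) gave p = 0.25, the smallest it allows.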
